A study of Mus musculus with 18 samples.

Results

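The protein kinase C (PKC) genes Prkca, Prkcb, Prkcd, Prkce, Prkch, Prkci, Prkcq and Prkcz were followed together with Prkd1 and Rasgrp1 through mouse skin carcinogenesis. They are 10 of the 52636 genes of the count table and were taken by name, as receptors of the phorbol ester TPA and the atypical PKC isoforms that do not bind it. TPA is the tumor promoter of the protocol used in the study. RNA was sequenced from keratinocytes of mock-treated skin, of skin next to tumors after treatment with the carcinogen DMBA and with TPA (treated skin), and of papillomas (tumors). Each of the 3 kinds of sample came from Zfp36 fl/fl mice and from Zfp36 ΔK14 mice, with 3 columns a group in the table. Zfp36 encodes tristetraprolin, which attaches to AU-rich elements (AREs) in mRNA and speeds decay.

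Both genotypes carried floxed Zfp36 alleles on a C57BL/6 background and were littermates, and the ΔK14 mice also carried a Cre driven by the human keratin 14 promoter. That promoter acts in basal keratinocytes and in cells that descend from them, so Zfp36 was to be lost in epidermal cells and kept in others. The methods describe cells sorted for EpCAM and against markers of leukocytes, fibroblasts and endothelium, whereas the source given in the labels is whole skin. The labels call the treated samples tumoral keratinocytes, and the study describes that skin as nontumoral. Ages, doses and durations are not in the labels, and nothing there says whether replicates were separate mice, so p-values measure only the spread between these samples.

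Levels are in CPM, counts scaled by library size to a common total. Zfp36 lay at 152 to 716 CPM in the fl/fl libraries and at 10.1 to 38.6 CPM in the ΔK14 libraries, with no overlap in any stage. Its difference was called by edgeR in treated skin and in tumors (adjusted p of 0.0391 and 0.00882) but not in mock skin (adjusted p = 1.0). The columns of mock ΔK14 replicates 2 and 3 were identical and were counted as 1 library, which left 17 libraries of 2808550 to 9617985 counts. In both genotypes mock replicate 1 was unlike the remaining mock libraries. The summed level of 7 basal keratinocyte markers was 3306 and 3402 CPM there and 15369 to 17284 CPM in the others. The sum of 7 suprabasal markers was 1002 and 898 CPM there and 7340 to 9354 CPM in the others. Of 10 T cell markers, 6 (among them Cd2, Cd3d and Cd3e) were at 0 in 10 to 16 of the 17 libraries, Cd3g in 7 and Trac in 3, while Lck and Thy1 were found in all 17.

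PKC isoforms are lipid-regulated serine/threonine kinases. Most isoforms bind diacylglycerol through their C1 domains, and TPA takes the place of that lipid with higher affinity and longer action. Among these, the conventional isoforms also need calcium, whereas a calcium-independent class (PKCδ, PKCε, PKCη and PKCθ) does not. The atypical isoforms respond to neither and work in cell polarity. Protein kinase D1 and the Ras activator RasGRP1 carry C1 domains of the same type, so TPA reaches them as well. In mouse epidermis PKC signaling is known for its part in tumor promotion and in the switch from proliferating basal cells to differentiating suprabasal cells.

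The heptamer TATTTAT, a core ARE of the kind bound by tristetraprolin, was searched on the transcript strand of the longest annotated 3′ untranslated region. It stood once each in Prkca, Prkce, Prkch, Prkci and Rasgrp1 and was not in the other 5. The 5 sites are shown because the 2 genotypes differ in the protein that binds such elements. Sequences are from GRCm38 (mm10) by GENCODE annotation, read 5′ to 3′ on the strand of the gene, and capitals mark the heptamer.
Prkca: cctttttttacTATTTATttaataagctg
Prkce: gtccactctctTATTTATtgcattccccc
Prkch: cagtaactagaTATTTATtgagtgtcaaa
Prkci: gcacagtgattTATTTATttgtttttaat
Rasgrp1: tctgtgtctcaTATTTATatcataaaaac
The windows lie at chr11:107938550-107938578 (minus strand), chr17:86654811-86654839 (plus), chr12:73777665-73777693 (plus), chr3:31050780-31050808 (plus) and chr2:117280005-117280033 (minus). Those in Prkce and Prkci fall inside the longer nonamer TTATTTATT, which 7.67% of genes hold. The heptamer was in 27.6% of 20913 genes. Among genes whose untranslated region was within 20% of the same length, it was in 72.15% for Prkca, 55.18% for Prkce, 27.48% for Prkch, 49.49% for Prkci and 47.58% for Rasgrp1. The AP-1 element TGACTCA or TGAGTCA, named for its response to TPA, was in none of 11 promoter windows of the 8 genes matched in the RefSeq promoter table, which has no entry for Prkce and Prkch. It was in 5.2% of 32851 promoters.

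Levels were set in order per kilobase of merged exons, as means ± SD of CPM per kb over the 17 libraries. Prkci was highest at 24.6 ± 3.19, followed by Prkcd at 13.7 ± 3.62 and Prkch at 6.33 ± 2.31. Prkci lay above Prkcd in 16 of 17 libraries, and Prkcd above Prkch in 17 of 17. Rasgrp1 followed at 4.54 ± 6.45, Prkce at 2.63 ± 0.674 and Prkca at 2.23 ± 0.711. These neighbors overlapped, since Rasgrp1 exceeded Prkce in 6 of 17 libraries and Prkce exceeded Prkca in 12 of 17. Prkd1 at 0.891 ± 0.453, Prkcq at 0.708 ± 0.784 and Prkcz at 0.551 ± 0.342 were low and also overlapped. Prkcb was last at 0.0965 ± 0.143 CPM per kb. In these epidermal cells the PKC transcripts were mainly of 1 atypical and 2 calcium-independent isoforms.

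**Figure D1:**
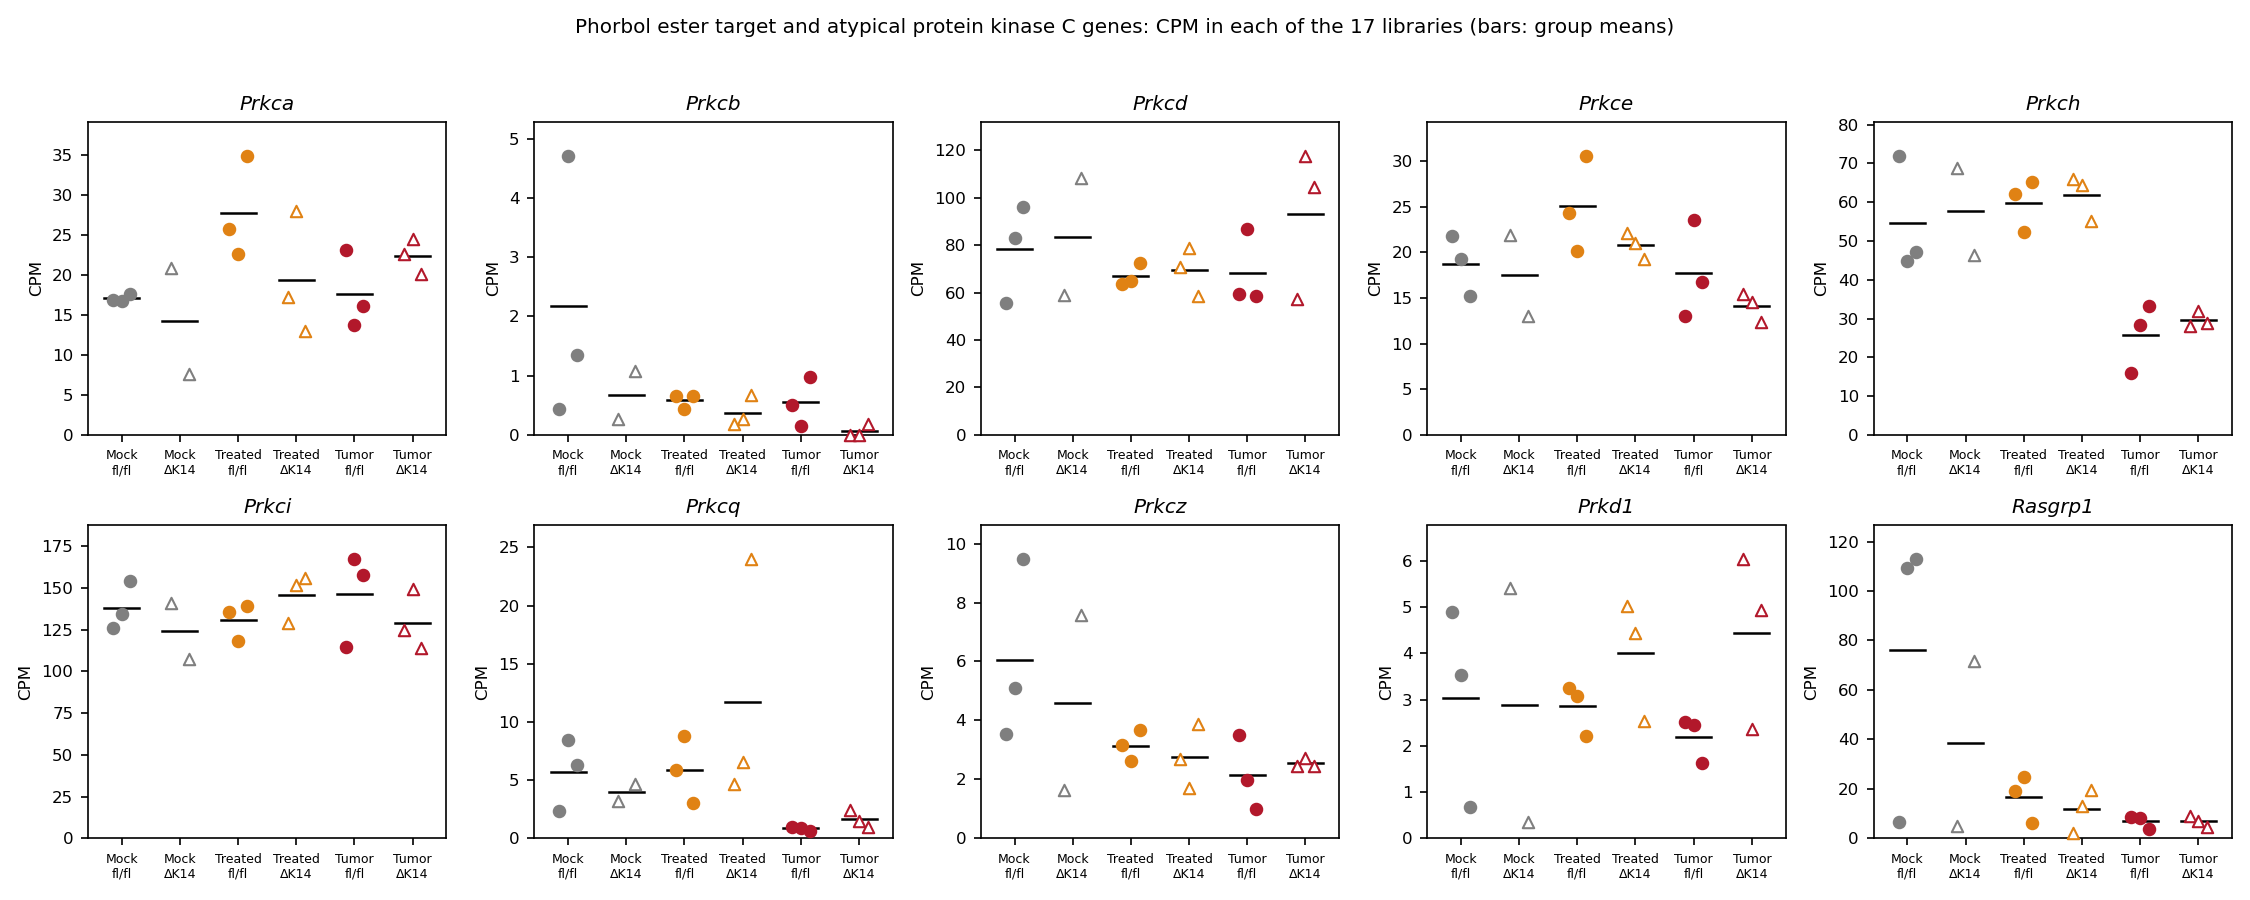
CPM (linear axis from 0, own scale in each panel) of the 10 genes in each of the 17 libraries, with circles for fl/fl, triangles for ΔK14 and a bar at each group mean. The 6 tumor libraries lie below all skin libraries for Prkch (16.1 to 33.1 against 44.8 to 72.0 CPM), and Rasgrp1 is high in 3 of 5 mock libraries.

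Between genotypes, none of the 10 genes was called in any stage. A call required a fold change over 2 and, in edgeR's quasi-likelihood test, a p below 0.05 after adjustment over all genes tested. In mock skin 0 of 9 tested members were called beside 0.0% of all 15920 genes, in treated skin 0 of 9 beside 0.00616% of 16232, and in tumors 0 of 8 beside 0.0284% of 14067. Beside 253, 901 and 1975 of all genes at an unadjusted p under 0.05, the counts of members were 0, 0 and 0. DESeq2 called 3, 36 and 366 of all genes, and 0 members in each. Their lowest adjusted p by edgeR was 1.0 in mock skin, 0.906 in treated skin and 0.450 in tumors.

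None of the 5 genes with the ARE heptamer was called between tumors of the 2 genotypes. Log2 fold changes of ΔK14 over fl/fl tumors, each with its standard error, were 0.24 ± 0.26 for Prkca and 0.04 ± 0.29 for Prkch. They were -0.49 ± 0.29 for Prkce, -0.32 ± 0.22 for Prkci and -0.13 ± 0.43 for Rasgrp1. Prkd1, which has no heptamer, had the largest difference of the 8 tested at 0.86 (95% interval -0.24 to 1.96, edgeR adjusted p = 0.450). Prkcq had too few counts for this test, with means of 0.858 ± 0.181 CPM in fl/fl and 1.62 ± 0.769 CPM in ΔK14 tumors (SD, n = 3 each). In treated skin the largest of the 9 tested was that of Prkcq at 0.99 (95% interval -0.46 to 2.45). For the abundant Prkcd the interval in treated skin was narrower, at -0.35 to 0.42.

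Between treated and mock skin no member was called. By edgeR 0 of 9 members were called in fl/fl and 0 of 9 in ΔK14, beside 0.0% of 16601 and 0.0% of 15891 genes. DESeq2 called 0 members in each, beside 118 and 71 of all genes. At an unadjusted p under 0.05 there was 1 member in fl/fl and 0 in ΔK14, beside 913 and 763 of all genes. The 1 was Prkca, which encodes the conventional isoform PKCα. Prkca lay at 16.9, 16.7 and 17.6 CPM in mock fl/fl skin and at 25.7, 22.6 and 34.9 CPM in treated fl/fl skin, with no overlap (1 member higher without overlap, beside 5.42% of all genes). Its log2 fold change was 0.72 ± 0.22 (standard error), with an edgeR adjusted p of 0.775. In ΔK14 mice it overlapped, at 20.8 and 7.57 CPM in mock and 17.2, 27.9 and 13.0 CPM in treated skin. Larger differences of variable genes missed the test, at 1.56 ± 0.81 for Prkcq in ΔK14 (95% interval -0.40 to 3.51) and -0.92 ± 0.42 for Prkcz in fl/fl (-1.92 to 0.09), and those of Rasgrp1 are given with that gene.

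Tumors had less Prkch than either kind of skin, in both genotypes. Prkch encodes PKCη, a calcium-independent isoform known from differentiating layers of stratified epithelia. The gene lies at chr12:73584796-73778185 (plus strand, mm10). Its CPM were 72.0, 44.8 and 47.3 in mock fl/fl skin, 68.8 and 46.5 in mock ΔK14 skin, 62.1, 52.2 and 65.2 in treated fl/fl skin and 66.0, 64.4 and 55.1 in treated ΔK14 skin. In tumors they were 16.1, 28.3 and 33.1 in fl/fl and 28.0, 31.9 and 28.9 in ΔK14. The highest tumor lay below the lowest of the 11 skin libraries, and the genotypes overlapped in every stage.

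Against treated skin Prkch fell by 1.16 on the log2 scale in ΔK14 tumors (standard error 0.18, 2.24-fold lower, edgeR adjusted p = 0.00214). It was called in 5 of 5 alternatives over all libraries and in 6 of 6 fits without 1 library. In fl/fl tumors it fell by 1.22 (standard error 0.28, 2.34-fold lower, adjusted p = 0.0201), and there 4 of 6 fits without 1 library lost the call. Without treated replicate 1, 2 or 3 the adjusted p was 0.0827, 0.0507 and 0.0710, and without tumor replicate 1 the value was -0.99, short of the fold needed. Against mock skin it fell by 1.06 in ΔK14 tumors (standard error 0.27, adjusted p = 0.0469), a call lost under 4 of 5 alternatives (all but DESeq2) and in 4 of 5 fits without 1 library. Without mock replicate 1 the value was -0.68 (adjusted p = 0.0697), and without tumor replicate 1, 2 or 3 the adjusted p was 0.125, 0.144 and 0.192. In fl/fl tumors against mock skin the log2 fold change was -1.10 ± 0.37, with an adjusted p of 0.113 (0.0106 and called in the single fit of all libraries). The comparisons with mock and with treated skin share the tumor libraries.

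Markers of some other cell types moved with Prkch, and those of others did not. The summed level of 6 melanocyte markers was 12.1 to 40.0 CPM in tumors and 51.6 to 375 CPM in skin, without overlap, and that of 6 fibroblast markers was 30.4 to 386 CPM in tumors and 377 to 1678 CPM in skin. Pearson's r of log2 CPM of Prkch was taken over the 17 libraries, which share group structure and depth. It was 0.80 with the melanocyte sum, 0.70 with the fibroblast sum and 0.71 with a sum of 5 muscle markers (at most 5.23 CPM). With sums of leukocyte markers outside the T cell list, endothelial markers and T cell markers, r was -0.43, -0.36 and 0.11. It was -0.81 with the basal keratinocyte sum and -0.02 with the sum of 7 suprabasal markers. The basal sum was 9195 to 33655 CPM in tumors and 3306 to 17284 CPM in skin, with overlap. The part of these markers in the result was not tested, and in bulk RNA fewer cells of a type and less RNA per cell cannot be told apart. The genes most like Prkch over the 17 libraries, among those with a mean of at least 5 CPM, were Cbx2 (r = 0.98), Sytl2 (0.97) and Cgn (0.96).

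Prkcq, which encodes PKCθ, a calcium-independent isoform best known from T cells, was also lower in tumors. The gene is at chr2:11172108-11301222 (plus strand). It lay at 2.33, 8.45 and 6.28 CPM in mock fl/fl skin, 3.25 and 4.69 in mock ΔK14 skin, 5.86, 8.77 and 3.01 in treated fl/fl skin and 4.67, 6.53 and 24.0 in treated ΔK14 skin. In tumors it lay at 1.0, 0.916 and 0.656 CPM in fl/fl and 2.46, 1.45 and 0.950 in ΔK14. These tumor values rest on 10 counts in all 3 fl/fl libraries and 24 counts in the 3 ΔK14 libraries. Tumors did not overlap with treated or mock skin of the same genotype.

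Against treated skin Prkcq fell by 2.75 on the log2 scale in fl/fl tumors (standard error 0.55, edgeR adjusted p = 0.0125) and by 2.93 in ΔK14 tumors (standard error 0.69, adjusted p = 0.0114). Both calls held in 5 of 5 alternatives over all libraries. Leaving out 1 library ended the fl/fl call in 3 of 6 fits (treated replicate 1, treated replicate 2 and tumor replicate 3, adjusted p of 0.0574, 0.0501 and 0.0522). It ended the ΔK14 call only without tumor replicate 3 (adjusted p = 0.0533). The ΔK14 value was set partly by treated replicate 3, the highest of all 17 libraries at 24.0 CPM, and without it the difference was -1.89 (adjusted p = 0.0141). That library also had the highest sum of 11 leukocyte markers outside the T cell list, 177 CPM against 11.6 to 37.2 CPM in the other skin libraries. Of this sum 172 CPM were Cd74, the invariant chain gene of MHC class II. Its suprabasal sum was also the highest, at 10523 CPM. Over the 17 libraries Pearson's r of log2 CPM of Prkcq was 0.66 with the T cell sum, 0.63 with the suprabasal sum, 0.61 with the fibroblast sum and 0.54 with the melanocyte sum. With the endothelial sum r was -0.57. Thy1 supplied most counts of the T cell sum, 2175 over the 17 libraries beside 209 of Lck. The T cell sum was 8.93 to 24.1 CPM in tumors and 9.15 to 67.8 CPM in skin, with overlap. The part of these markers in the result was not tested. Against mock skin Prkcq was not called, at -2.72 ± 0.65 in fl/fl (adjusted p = 0.0581) and -1.37 ± 0.54 in ΔK14 (adjusted p = 0.127). DESeq2, the fit without a low-count filter and the single fit of all libraries called it in fl/fl.

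Both called genes of the set were lower in tumors against treated skin, where 10.5% of 15362 genes were called lower in fl/fl and 15.5% of 15289 in ΔK14, and 2 of 9 members in each. Against mock skin 0 of 9 members were called in fl/fl, beside 4.11% of 15394 genes (1.88% called lower). There 4 members had an unadjusted p under 0.05, beside 4038 of all genes. DESeq2 called 2 members, beside 2201 of all genes. In ΔK14 1 of 9 was called, beside 7.22% of 15027 genes called lower. All calls with every library included were of lower levels. Members lower in tumors without overlap numbered 2 of 9 in fl/fl and 3 of 9 in ΔK14 against treated skin, beside 24.0% and 23.8% of all genes. Against mock skin they were 3 of 9 and 2 of 9, beside 16.9% and 24.3%. The median log2 fold change of the members against treated skin was -0.67 in fl/fl and -0.27 in ΔK14, with -0.02 and -0.03 over all genes.

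**Figure D2:**
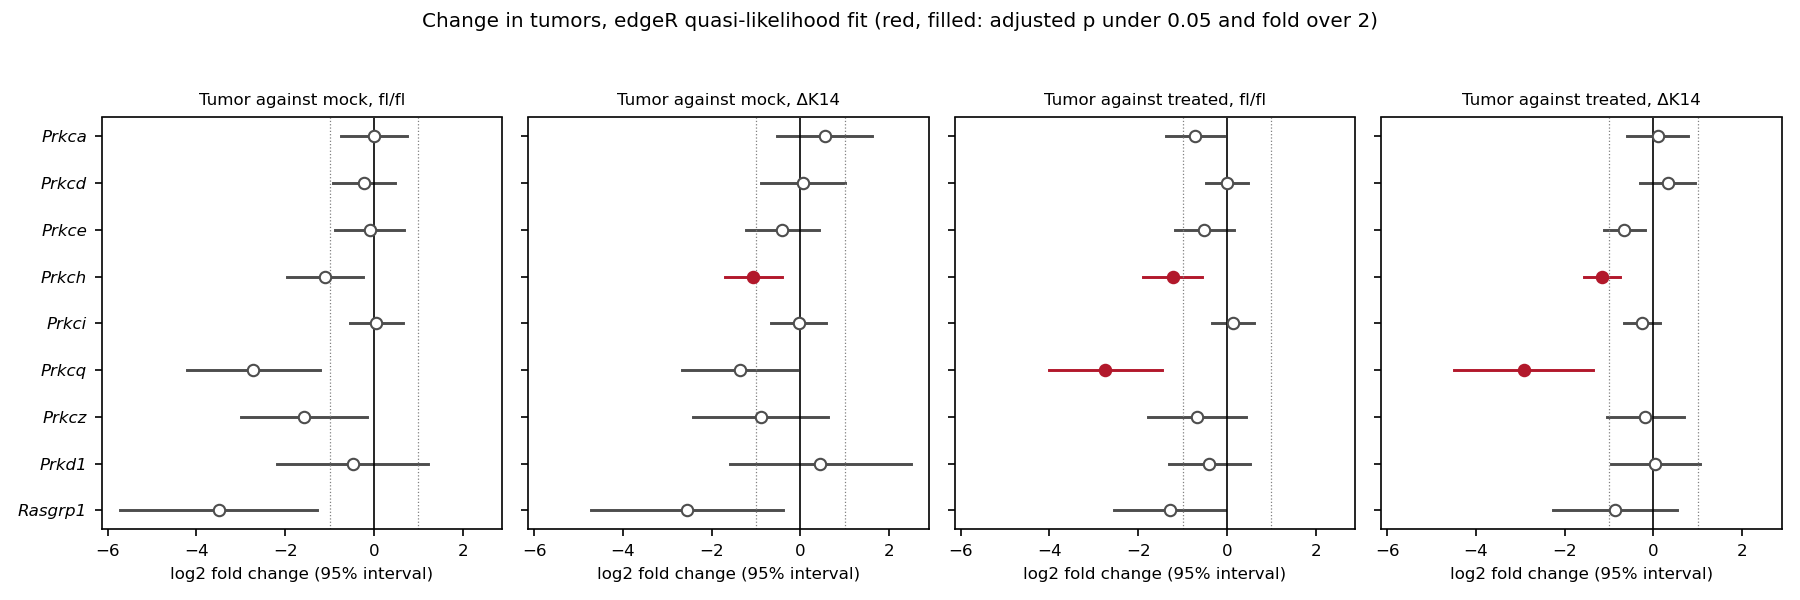
Log2 fold changes of the 9 tested genes in tumors against mock and treated skin (points, with 95% intervals as lines), with red filled points for genes called by edgeR's quasi-likelihood test and dotted lines at a fold of 2. Prkch and Prkcq are called in both genotypes against treated skin (-1.22 and -2.75 in fl/fl, -1.16 and -2.93 in ΔK14), and the intervals of Rasgrp1 against mock skin are the widest among genes below 0.

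The other calcium-independent isoforms were not called in any comparison. Prkcd encodes PKCδ, known in keratinocytes for a role in cell death and differentiation. It ranged from 55.7 to 118 CPM, within 2.11-fold over all libraries, and its log2 fold changes in the 4 tumor comparisons lay between -0.23 and 0.32. The ΔK14 tumors at 118 and 105 CPM were above every treated library, and the other was at 57.3 CPM. Prkce encodes PKCε, known as oncogenic when overexpressed in mouse skin. It lay at 22.1, 21.0 and 19.3 CPM in treated ΔK14 skin and at 15.4, 14.5 and 12.3 CPM in ΔK14 tumors, without overlap. The difference of -0.66 ± 0.21 passed the test (edgeR adjusted p = 0.0354) with a fold of 1.58, short of the fold of 2 needed for a call. In fl/fl it was -0.51 ± 0.28, with treated skin at 24.3, 20.2 and 30.6 CPM and tumors at 13.0, 23.5 and 16.7 CPM.

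Of the 2 conventional isoforms in the set, Prkca had counts enough for a test. In fl/fl tumors Prkca lay at 23.1, 13.7 and 16.1 CPM and overlapped with treated skin (-0.72 ± 0.28, edgeR adjusted p = 0.0991). In ΔK14 tumors it lay at 22.6, 24.5 and 20.1 CPM, within the range of treated ΔK14 skin. The exons of Prkca overlap the antisense gene Apoh, which had 0 to 10 counts a library, and the use of strand in counting is not stated. Prkcb, the PKCβ gene typical of leukocytes, did not pass the low-count filter in any comparison. Its counts were 4, 24 and 14 in mock fl/fl skin and at most 6 in every other library. In ΔK14 tumors they were 0, 0 and 1, where a count of 0 allows up to 0.671 and 0.545 CPM, by counting error alone.

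Neither atypical isoform was called in tumors. Prkci encodes PKCι, a partner of the Par polarity proteins, and had the narrowest range of the 9 tested genes at 107 to 167 CPM, or within 1.56-fold over all libraries. Its log2 fold changes in tumors lay between -0.27 and 0.14, and the 95% interval against treated skin was -0.33 to 0.61 in fl/fl and -0.67 to 0.14 in ΔK14. Prkcz, which encodes PKCζ, was low and variable. It lay at 3.55, 5.11 and 9.48 CPM in mock fl/fl skin and at 3.51, 1.99 and 0.983 in fl/fl tumors, a difference of -1.58 ± 0.61 (edgeR adjusted p = 0.154). The groups did not overlap, although the nearest libraries were almost level. In ΔK14 mice Prkcz was at 1.62 and 7.57 CPM in mock skin and at 2.46, 2.72 and 2.47 CPM in tumors.

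As shares of the summed CPM per kb of the 8 PKC genes, Prkci made up 48.4% ± 4.94, Prkcd 27.0% ± 6.28 and Prkch 12.4% ± 4.28 (SD over 17 libraries). Prkce made up 5.16% ± 1.16 and Prkca 4.43% ± 1.44. Prkcq, Prkcz and Prkcb followed at 1.36%, 1.08% and 0.188%. The share of Prkch was 14.03% ± 5.07 in mock and 15.4% ± 0.594 in treated fl/fl skin, and 7.18% ± 1.85 in fl/fl tumors (n = 3 each). In ΔK14 mice it was 15.1% ± 3.81 in mock skin (n = 2), 15.2% ± 1.89 in treated skin and 8.08% ± 0.766 in tumors (n = 3 each). The sum itself was level, with group means from 47.1 to 54.1 CPM per kb. With the length of the longest transcript in place of merged exons, Prkcd rose to 34.8% and Prkci stood at 38.1%, in the same order.

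**Figure D3:**
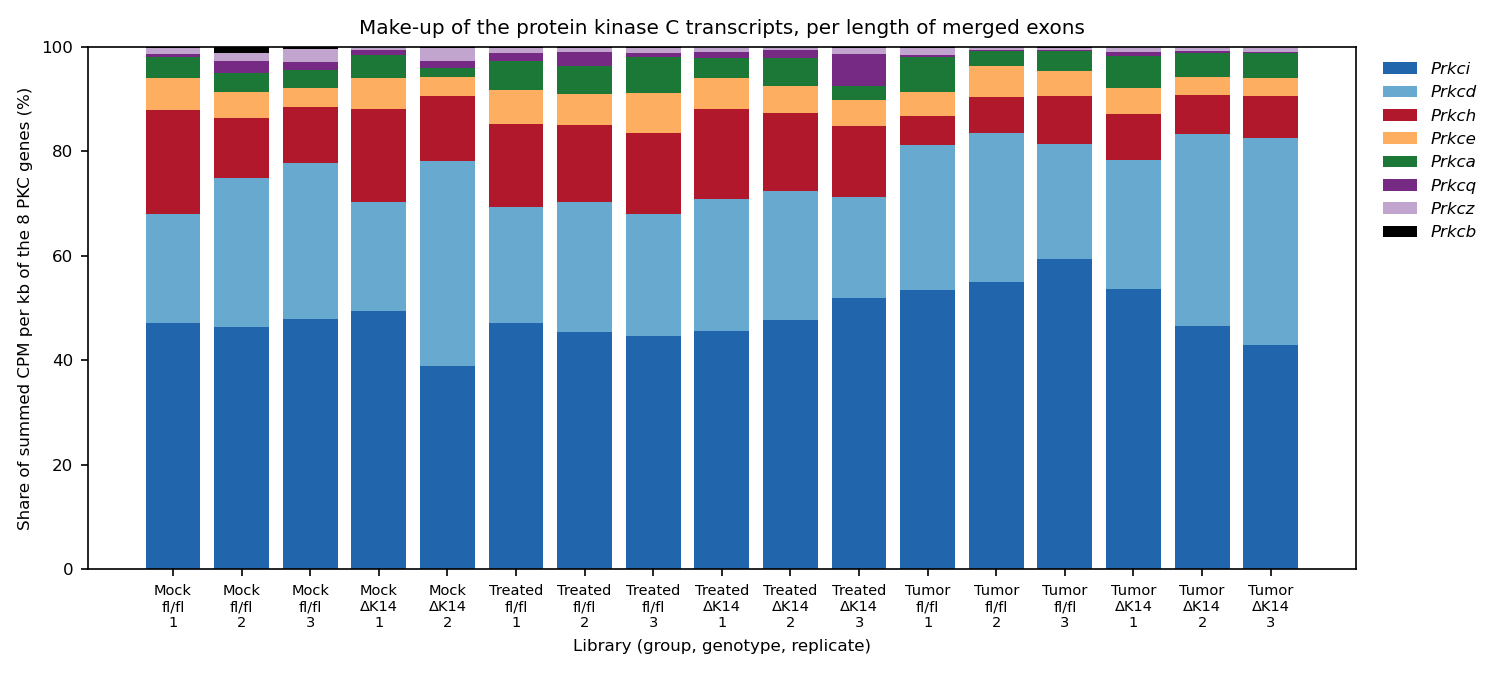
Stacked bars give each PKC gene's share (%) of the summed CPM per kb of merged exons of the 8 PKC genes, 1 bar for each of the 17 libraries. Prkci and Prkcd fill most of each bar, and the red band of Prkch is 5.53% to 9.18% in tumors and 10.8% to 19.9% in skin.

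Prkd1, which encodes protein kinase D1, a kinase activated by calcium-independent PKCs, was low in all groups. It lay at 4.88, 3.54 and 0.677 CPM in mock fl/fl skin, 5.41 and 0.361 CPM in mock ΔK14 skin and 2.22 to 5.02 CPM in treated skin. In tumors it lay at 2.51, 2.44 and 1.64 CPM in fl/fl and 6.04, 2.36 and 4.94 CPM in ΔK14, and groups overlapped in all 4 tumor comparisons. Its log2 CPM went with the sum of 6 proliferation markers over the 17 libraries (r = 0.82, a description from 1 to 44 counts a library), and both mock libraries labelled replicate 1 were high in both. That sum was 1388 and 1423 CPM in mock replicate 1 and 308 to 737 CPM in the other mock libraries.

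Rasgrp1 had the widest range of the 9 tested genes, 48.4-fold from lowest to highest library. RasGRP1 loads Ras with GTP once diacylglycerol or TPA holds it at the membrane, and the gene is at chr2:117279993-117343001 (minus strand). Rasgrp1 lay at 6.55, 109 and 113 CPM in mock fl/fl skin and at 5.14 and 71.7 CPM in mock ΔK14 skin. It lay at 19.2, 24.8 and 6.01 CPM in treated fl/fl skin, 2.33, 13.2 and 19.6 CPM in treated ΔK14 skin, 8.53, 8.40 and 3.61 CPM in fl/fl tumors and 8.95, 7.08 and 4.56 CPM in ΔK14 tumors. Mock replicate 1 of each genotype was at tumor level, and the other 3 mock libraries were above all treated and tumor libraries.

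Tumors against mock skin gave a log2 fold change of -3.50 ± 0.96 in fl/fl (edgeR adjusted p = 0.0757) and -2.56 ± 0.91 in ΔK14 (adjusted p = 0.101), neither of them called. Without mock replicate 1 the values were -4.03 (adjusted p = 0.00128) and -3.42 (adjusted p = 0.000304), both called. In these fits 21.0% of 15636 genes were called in fl/fl and 28.1% of 16269 in ΔK14. Without mock ΔK14 replicate 2, which leaves replicate 1 as the only mock library, the ΔK14 value was 0.40. DESeq2 called Rasgrp1 in both genotypes (adjusted p of 0.00134 and 0.0293). The gap between treated and mock fl/fl skin was -2.18 ± 0.99 (adjusted p = 0.888), and without mock replicate 1 it was -2.73 (adjusted p = 0.00634), beside 15.1% of 17103 genes called. In that fit Prkcz was also called, at -1.19 (adjusted p = 0.0437). In ΔK14 tumors against mock without replicate 1, the calls were Rasgrp1, Prkcz (-1.59), Prkca (1.53) and Prkd1 (3.48), the last 2 higher, and mock skin was then a single library assumed to vary like the tumors.

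Suprabasal markers moved with Rasgrp1 (r = 0.78 over 17 libraries with the sum of 7 markers). The 3 mock libraries with high Rasgrp1 had suprabasal sums of 7340 to 9354 CPM, and the tumors 1044 to 3049 CPM. Treated ΔK14 replicate 3 had a suprabasal sum of 10523 CPM with Rasgrp1 at 19.6 CPM. The T cell list gave r = 0.92, of which Thy1 supplied most counts (2175 over the 17 libraries, 4.55 to 66.6 CPM). Lck had 209 counts, Trac 46, Cd3g 25 and each of the other 6 markers at most 13. The part of these markers was not tested. The genes most like Rasgrp1 were Exph5 (r = 0.97), Limch1 (0.96) and Il1rl2 (0.96), and those most like Prkcq were Smpd2 (0.92), Plekha1 (0.88) and Gm16136 (0.88).

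**Figure D4:**
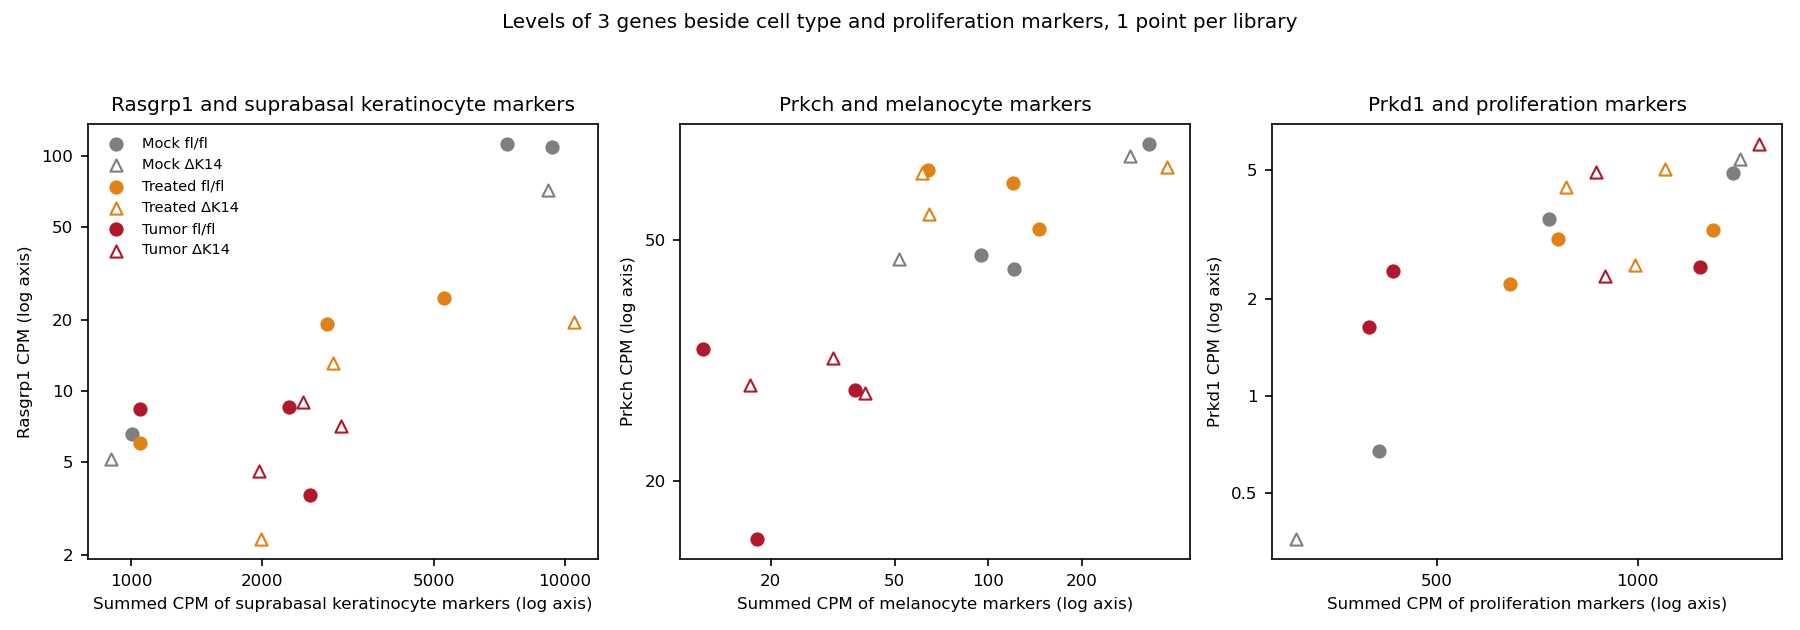
CPM of Rasgrp1, Prkch and Prkd1 against summed CPM of suprabasal keratinocyte, melanocyte and proliferation markers (all axes logarithmic), 1 point for each library, with gray for mock, orange for treated and red for tumor. Rasgrp1 is at 71.7 CPM or more only in 3 mock libraries with suprabasal sums of 7340 CPM or more, and the 6 tumors sit low on both axes for Prkch.

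The change from skin to tumor was not shown to differ between genotypes for any member. In tests of the interaction 0 of 9 members were called for treated against mock (0.0% of 17694 genes), 0 of 9 for tumor against mock (0.0% of 17388) and 0 of 9 for tumor against treated (0.0118% of 17017). The counts of members at an unadjusted p under 0.05 were 0, 0 and 0, beside 257, 1423 and 2243 of all genes. DESeq2 called 0 members in each, beside 0, 31 and 230 of all genes. For Prkch in tumor against treated skin the difference between genotypes was 0.08 (95% interval -0.64 to 0.79), and for Prkcq it was -0.17 (-2.58 to 2.24). In that interaction the largest value was that of Prkca at 0.83 (-0.09 to 1.76, edgeR adjusted p = 0.426). In the interactions with mock skin it was that of Prkcq, at 1.48 (-0.83 to 3.79) for treated and 1.35 (-0.59 to 3.28) for tumor.

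Genes around these kinases were counted from lists of the pathway, to be read against all genes. In tumors against treated skin 18.0% of all genes were called in fl/fl (7.5% higher, 10.5% lower) and 26.0% in ΔK14 (10.5% higher, 15.5% lower). Against mock skin 2.22% were called higher in fl/fl, and 14.3% were called in ΔK14 (7.05% higher, 7.22% lower). Of 12 other C1-domain receptors, 9 were tested against treated skin in fl/fl and 8 in ΔK14. Chn2, which encodes the Rac regulator β2-chimaerin, was called lower in both (edgeR adjusted p of 0.0107 and 0.00715). It went from 12.7 ± 3.91 to 2.39 ± 1.22 CPM (SD) in fl/fl and from 13.2 ± 7.84 to 0.869 ± 1.18 CPM in ΔK14 tumors. Against mock skin the call in this list was Prkd3, a relative of Prkd1, in ΔK14 tumors (60.3 ± 4.71 against 25.7 ± 7.29 CPM, adjusted p = 0.0455).

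Enzymes that clear or make diacylglycerol were counted in the same way. Of the diacylglycerol kinases, which clear it, 0 of 7 tested were called in any of the 12 comparisons by edgeR, with 5 of 84 tests at an unadjusted p under 0.05 and 0 calls by DESeq2. The share of all genes called ran from 0.0% to 26.0% over these comparisons. The number of all genes at an unadjusted p under 0.05 ran from 253 to 7246, and that called by DESeq2 from 0 to 3958. Of 12 phospholipases C, which make it, 10 were tested in fl/fl tumors against treated skin and 2 were called lower, beside 10.5% of all genes. Plce1, the isoform regulated by Ras, was at 1.08 ± 0.852 against 8.78 ± 3.09 CPM, and Plch2 was at 49.2 ± 23.1 against 100.6 ± 9.38 CPM. In ΔK14 tumors 2 of 10 tested, Plce1 and Plcb1, were called lower against mock skin, beside 7.22% of all genes. Plce1 was at 0.0605 ± 0.105 (n = 3) against 2.93 ± 0.0662 CPM (n = 2). In those tumor libraries 3 counts amount to 0.545 to 0.671 CPM, so Plce1 was near the floor there. Against treated skin 1 of 8 tested was called higher in ΔK14 tumors, beside 10.5% of all genes. That was Plcb4, at 16.4 ± 5.32 against 5.60 ± 2.10 CPM.

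Of 16 anchors, phosphatases and substrates of PKC, 15 were tested against treated skin. In fl/fl tumors 2 were called higher and 2 lower, and in ΔK14 tumors 6 higher and 1 lower, beside 7.5% higher and 10.5% lower of all genes in fl/fl and 10.5% and 15.5% in ΔK14. Hsp90aa1 and Hsp90ab1, whose chaperone helps PKC mature, were higher in both, by a log2 fold change of 1.04 ± 0.19 and 1.02 ± 0.25 (standard error) in fl/fl and 1.34 ± 0.23 and 1.31 ± 0.20 in ΔK14. Add2, which encodes the PKC substrate β-adducin, was higher in ΔK14 by 3.34 ± 0.36, and Phlpp1, a phosphatase that acts on PKC, by 1.24 ± 0.28. Akap12, an anchoring protein gene, was lower in fl/fl by -1.49 ± 0.32. The MARCKS-like substrate gene Marcksl1 was lower by -1.19 ± 0.33 in fl/fl and by -1.10 ± 0.34 in ΔK14, where it was named after its value was seen.

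All 11 genes of the atypical PKC polarity complex were tested in the 4 tumor comparisons. Against treated skin 1 was called higher and 1 lower in fl/fl, beside 7.5% and 10.5% of all genes. In ΔK14 2 were called higher and 1 lower, beside 10.5% and 15.5%. Against mock skin 1 was called lower in fl/fl, beside 1.88% of all genes. In ΔK14 1 was called higher and 1 lower, beside 7.05% and 7.22%. Pard3b, a Par3 paralog, was called lower in all 4 comparisons. It was at 2.47 ± 2.25 CPM in fl/fl tumors, 29.8 ± 12.7 CPM in mock and 27.5 ± 10.4 CPM in treated fl/fl skin. In ΔK14 tumors it was at 0.124 ± 0.107 CPM, with 22.1 ± 5.98 CPM in mock and 14.1 ± 7.97 CPM in treated skin. That tumor mean is below the level of 3 counts in those libraries (0.545 to 0.671 CPM). Sqstm1, which encodes the atypical PKC scaffold p62, was called higher against treated skin by 1.67 ± 0.17 on the log2 scale in fl/fl and 2.61 ± 0.33 in ΔK14. It was also called against mock skin in ΔK14, at 2.47 ± 0.48, and Pard6b, the Par6 partner gene, was called higher against treated skin in ΔK14 at 1.04 ± 0.27.

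Of 8 transcripts known to rise after TPA, edgeR called 0 in treated against mock skin of either genotype, beside 0.0% of all genes. At an unadjusted p under 0.05 there were 1 in fl/fl and 2 in ΔK14, beside 913 of 16601 and 763 of 15891 genes. DESeq2 called 1 in each, beside 118 and 71 of all genes. In tumors against treated skin 6 were called higher and 1 lower in each genotype, beside 7.5% and 10.5% of all genes in fl/fl and 10.5% and 15.5% in ΔK14. Odc1, the ornithine decarboxylase gene used as a readout of tumor promotion, was higher by 2.26 ± 0.27 on the log2 scale in fl/fl and 3.17 ± 0.45 in ΔK14. Fosl1, an AP-1 subunit, was higher by 2.33 ± 0.20 and 2.21 ± 0.25, and Hbegf, a growth factor of the EGF family, by 2.51 ± 0.30 and 2.76 ± 0.35. The 1 that was lower, named after its value was seen, was the immediate early gene Egr1, at -1.0 ± 0.24 and -1.58 ± 0.24.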

How the data were processed

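Raw counts per gene were deposited by the authors as 1 table of 52636 genes and 18 columns, from Ovation SoLo libraries sequenced on an Illumina HiSeq. The submitters' notes name mm10, Trimmomatic 0.36, STAR 2.5.3, HTSeq 0.9.1 and DESeq2, with no role, and the table itself is named for a feature counter. The annotation release, the use of strand and the removal of duplicate reads are not given in the sources used here, so antisense and overlapping genes are uncertain. Groups came from the sample titles, and no column lay outside the design.

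Counts were tested in R 4.3.3 with edgeR 4.0.16 (filterByExpr, TMM, quasi-likelihood F test, two-sided, Benjamini-Hochberg adjustment over all genes tested), using the libraries of the groups compared. A call needed an adjusted p under 0.05 and a fold over 2. CPM are on TMM-scaled library sizes, and errors of fold changes are standard errors. Precision from counts covers counting error only. DESeq2 1.42.0, RLE scaling, no low-count filter, a single fit, a replicate block and fits without each single library were alternatives. Procedures were tested on simulated data. All 10 genes are named everywhere, and other lists give their counts and at most the 4 calls with the smallest p. The genes and lists were chosen with earlier results of these data known. Like patterns are the 3 highest Pearson r of log2 CPM with prior count 2. Withheld items of the other lists are not reported here.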

Additional observations from a re-analysis of the deposited data

How the results depend on the processing

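The calls of Prkch and Prkcq against treated skin kept their direction and call under DESeq2, RLE scaling, no low-count filter, a single fit of all libraries and the replicate block, and other calls depended on the setting. In fl/fl tumors against mock skin 0 members were called, and 2 by DESeq2, 2 without the filter and 3 in the single fit. In ΔK14 tumors against mock skin 1 was called, and 2 by DESeq2, 1 without the filter, 0 with RLE scaling, 0 in the single fit and 0 with the block. Over all genes the calls there were 2144, then 2805, 4154, 2061, 3074 and 938 in the same order. The 1 call was Prkch with the filter and Rasgrp1 without it, where Prkch was at -0.94 (edgeR adjusted p = 0.0653). Leaving out 1 library moved the counts from 0 to 2 in treated against mock fl/fl, 0 to 2 in tumor against mock fl/fl, 0 to 4 in ΔK14, 0 to 2 in tumor against treated fl/fl and 1 to 3 in ΔK14. The causes were not tested. Over all genes, DESeq2 called 2201 in tumor against mock fl/fl, where edgeR called 632, with 2595 without the filter and 3205 in the single fit. Between tumors of the 2 genotypes edgeR called 4, with 366 by DESeq2, 1393 without the filter and 122 in the single fit, and in treated against mock fl/fl 0, with 118 by DESeq2 and 30 without the filter. Low counts limit Prkcb, Prkcq, Prkcz and Prkd1 most.

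The labels do not say that replicate numbers pair the libraries. Correlations of same-numbered libraries ran from -0.55 to 0.78, and no comparison with 3 pairs had all above 0.1. Both mock pairs of the genotypes, only 2 in number, were at 0.78 and 0.57. These correlations use deviations from group means, and the 2 mock ΔK14 libraries deviate by equal and opposite amounts. The 2 values are therefore not independent. The mock ΔK14 library numbered 2 holds the values of columns 2 and 3 alike, so its pair and its block number are uncertain. With the replicate block 2 members were called against treated skin in each genotype and 0 elsewhere. Over all genes the block moved the calls from 0 to 110 between genotypes in mock skin, from 0 to 43 in treated against mock ΔK14, from 632 to 244 in tumor against mock fl/fl, from 2144 to 938 in ΔK14 and from 2764 to 1831 in tumor against treated fl/fl. Under the block the log2 fold change reversed for Prkch in mock skin between genotypes (-0.035), Prkd1 in treated against mock fl/fl skin (0.22), Prkca in tumor against mock fl/fl (-0.020), Prkcd in tumor against treated fl/fl (-0.019) and in tumor against mock ΔK14 (-0.045), and Prkci in the last (0.065).

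Other reversals were of uncalled differences near 0. Without the filter they were Prkch in mock skin between genotypes (-0.012), Rasgrp1 between tumors (0.033), Prkca in tumor against mock fl/fl (-0.051), Prkcd in tumor against treated fl/fl (-0.038) and Prkci in tumor against mock ΔK14 (0.087). Prkci there was 0.0010 by DESeq2, 0.0014 with RLE scaling and 0.059 in the single fit. Prkd1 between genotypes in mock skin was 0.0066 in the single fit. A term for mock replicate 1, chosen after seeing the data, gave Prkch -0.032 in the same comparison.

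Leaving out 1 library reversed further log2 fold changes, none of them called with every library included, given here by their lowest and highest values. For ΔK14 over fl/fl in mock skin these were Prkca (-1.17 to 0.25), Prkcd (-0.43 to 0.48), Prkce (-0.53 to 0.19), Prkch (-0.24 to 0.37), Prkcz (-1.91 to 0.34), Prkd1 (-3.02 to 0.79). For ΔK14 over fl/fl in treated skin these were Prkcd (-0.074 to 0.17), Prkch (-0.065 to 0.13), Prkcq (-0.012 to 1.35), Prkcz (-0.54 to 0.025). For ΔK14 over fl/fl in tumors these were Prkch (-0.15 to 0.26), Prkcz (-0.14 to 0.56), Rasgrp1 (-0.42 to 0.15). For treated against mock in fl/fl these were Prkci (-0.11 to 0.047), Prkcq (-0.31 to 0.45), Prkd1 (-0.54 to 0.62). For tumor against mock in fl/fl these were Prkca (-0.22 to 0.18), Prkce (-0.35 to 0.080), Prkci (-0.031 to 0.22), Prkd1 (-0.98 to 0.16). For tumor against treated in fl/fl these were Prkcd (-0.20 to 0.12). For treated against mock in ΔK14 these were Prkca (-0.049 to 1.38), Prkcd (-0.62 to 0.28), Prkce (-0.037 to 0.69), Prkch (-0.11 to 0.42), Prkcz (-1.46 to 0.78), Prkd1 (-0.39 to 3.41), Rasgrp1 (-2.59 to 1.23). For tumor against mock in ΔK14 these were Prkcd (-0.25 to 0.65), Prkce (-0.64 to 0.086), Prkci (-0.16 to 0.23), Prkcz (-1.59 to 0.64), Prkd1 (-0.30 to 3.48), Rasgrp1 (-3.42 to 0.40). For tumor against treated in ΔK14 these were Prkca (-0.11 to 0.50), Prkcz (-0.43 to 0.15), Prkd1 (-0.21 to 0.38).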
